A study of Mus musculus with 12 samples.

Results

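A set of 10 genes stands for the fibroblast growth factor (FGF) to extracellular signal-regulated kinase (ERK) pathway in these data. They are the ligand Fgf4, the receptors Fgfr1 and Fgfr2, the transcription factor genes Etv4, Etv5 and Egr1, and the feedback inhibitors Dusp6, Spry2, Spry4 and Spred1. They were listed by name as a transcript readout of ERK activity, and matched by gene symbol to the deposited tables. All 10 were found among the 24480 genes of each table. RNA was sequenced from E14Tg2a mouse embryonic stem cells (ESCs), a feeder-free line kept in serum with leukemia inhibitory factor (LIF), after transient lipid transfection. The question was which genes respond to less or to more Yes-associated protein (YAP), the coactivator of the Hippo pathway that acts on DNA through TEAD factors. Knockdown cells received a mix of Stealth siRNAs against YAP (YAP KD) or scrambled siRNAs (CTR KD). The paper profiled them at the time of lowest YAP after transfection, and it reports some cell death at that time. Overexpressing cells received a plasmid with the mouse YAP coding sequence behind the CAG promoter (YAP OE). Their controls (CTR OE) received a plasmid that encoded GFP according to the labels and an empty vector according to the methods.

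Each of the 4 groups held 3 libraries that the labels describe as independent experiments, and the libraries contained between 42926256 and 57240703 expected counts. Replicates were compared by the chi-square of the counts over its degrees of freedom, where any group of 3 has 1 library outside its closest pair. CTR KD replicate 2 was at 21 and 15.1 against the other CTR KD libraries, which were at 6.55 with each other. In the same way YAP OE replicate 3 was at 25.7 and 17.6 against 12, and YAP KD replicate 3 at 20.5 and 10.8 against 8.84. CTR OE replicate 2 was at 7.01 and 5.02 against 3.54. Results without CTR KD replicate 2 and without YAP OE replicate 3 are given below, with ranges over each library left out. Values are CPM, read counts scaled to a common library total and normalized by the trimmed mean of M values (TMM). Yap1 was at 125.3 ± 9.74 in the CTR KD libraries and at 56.65 ± 1.79 in those of YAP KD, so 45.3% of the control level was left. It was at 132.6 ± 2.1 in CTR OE and at 258.8 ± 16.8 in YAP OE, where plasmid and endogenous reads were counted together (mean ± SD of 3 libraries, here and below). No sorting of transfected cells is described, and in RNA of a whole culture a change in some cells and a smaller change in all of them cannot be told apart. The 10 ESC markers, among them Pou5f1, Sox2 and Nanog, summed to between 4310 and 4690 CPM over the 12 libraries. None of them was called on knockdown or on overexpression in edgeR. On knockdown 5 of the 10 had an unadjusted p under 0.05, against 19.6% of all genes. The median log2 fold change of the 10 was -0.111, with 4 positive and 6 negative. Pou5f1 went from 1026 to 1075 CPM and Sox2 from 430 to 437.6 CPM. Below all controls lay 4 of the 10, namely Nanog (-0.13), Zfp42 (-0.13), Tfcp2l1 (-0.10) and Dppa3 (-0.12), where 25.8% of all genes did not overlap. On overexpression 2 of the 10 had an unadjusted p under 0.05, against 13.1% of all genes, and the median was -0.0232. The part of these markers in the results below was not tested.

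Mouse ESCs secrete FGF4, which binds FGF receptors together with heparan sulfate and activates ERK through RAS, RAF and MEK kinases. ERK signalling primes ESCs to leave self-renewal and favours primitive endoderm in the early embryo. ERK also induces its own brakes: DUSP6 is a phosphatase that removes phosphate from ERK, and Sprouty and Spred proteins hold back RAS and RAF activation. ETV4 and ETV5 are ETS factors of the PEA3 group induced by FGF, and EGR1 is an immediate early zinc finger factor. None of these transcripts measures ERK phosphorylation itself.

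The levels of the 10 genes spanned a wide range. On the scale of CPM per kilobase of effective length, which allows genes to be compared, Etv5 was the most abundant in CTR KD at 136 ± 6.75 and Egr1 the least at 0.578 ± 0.0746. Between them came Fgf4 at 67.5, Spry2 at 36.6, Dusp6 at 27.7, Spred1 at 17.1, Spry4 at 16.1, Fgfr1 at 10.8, Etv4 at 8.71 and Fgfr2 at 6.36. The ligand and 1 ETS factor therefore led the list, and both receptors lay near its end. Replicates of neighbouring genes overlapped only for Spred1 and Spry4 in CTR KD. The order was the same in CTR OE and YAP OE. In YAP KD Etv4, at 11.1 CPM per kilobase, came above Fgfr1 at 10.9, although their libraries overlapped, as did those of Spred1 and Spry4. Egr1 rested on 71 to 127 counts per library and the other 9 genes on at least 800. The counts of Fgfr1 were more than 0.005 away from a whole number in 11 of the 12 libraries, as occurs where RSEM divides reads between genes.

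**Figure D1:**
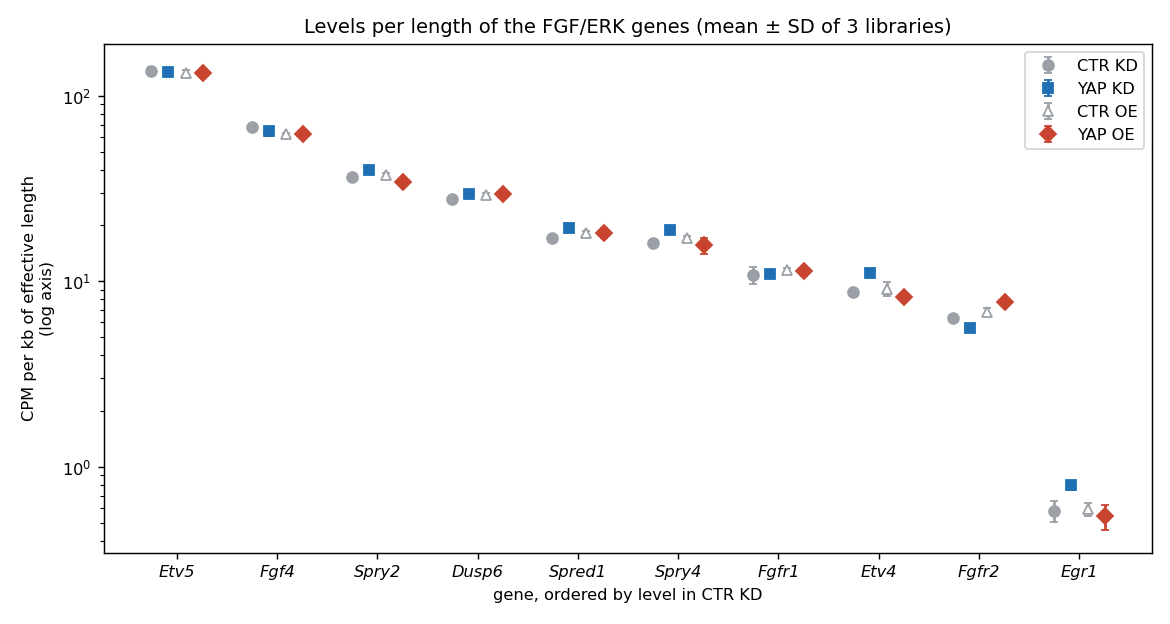
Mean CPM per kilobase of effective length (log axis) of the 10 FGF/ERK genes in the 4 groups, with bars for the SD of 3 libraries, in the order of CTR KD. Etv5 lies at 136 and Egr1 at 0.578 in CTR KD, and Etv4 passes Fgfr1 in YAP KD alone.

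The first comparison asked whether the pathway's transcripts respond to less YAP. Of the 10 genes, 3 were higher in YAP KD than in CTR KD at an adjusted p under 0.05 (edgeR quasi-likelihood test), namely the ETS factor gene Etv4 and the feedback inhibitor genes Spry4 and Spred1, and 0 were lower. Over all 14606 genes tested, 5.49% were called, 2.71% of them higher and 2.78% lower. The changes were small, from 13% for Spred1 to 26.9% for Etv4. Libraries of both groups did not overlap for 7 of the 10 genes, of which 6 were higher and Fgfr2 was lower, against 25.8% of all genes. The median log2 fold change of the 10 genes was 0.109, beside 0.0058 over all genes tested. An unadjusted p under 0.05 was found for 7 of the 10 genes and for 19.6% of all genes. Without CTR KD replicate 2, 4 of the 10 genes were called, with Fgfr2 (-0.183, adjusted p = 0.0415) and Egr1 and without Spred1. The count was 1 of 10, Etv4, without CTR KD replicate 3 or without YAP KD replicate 1.

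The second comparison asked the same of more YAP. In YAP OE against CTR OE 0 of the 10 genes passed the edgeR test, where 2.13% of 14804 genes were called, 1.66% higher and 0.473% lower. DESeq2 and limma-voom also called 0, and 4 of the 10 genes had an unadjusted p under 0.05, against 13.1% of all genes. Libraries did not overlap for Fgfr2, which was higher in YAP OE, and for Spry2 and Spry4, which were lower, that is for 3 of 10 genes against 18.1% of all genes. The median log2 fold change was -0.022, beside -0.00249 over all genes tested. Without YAP OE replicate 3, 0 of the 10 genes were called as well.

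**Figure D2:**
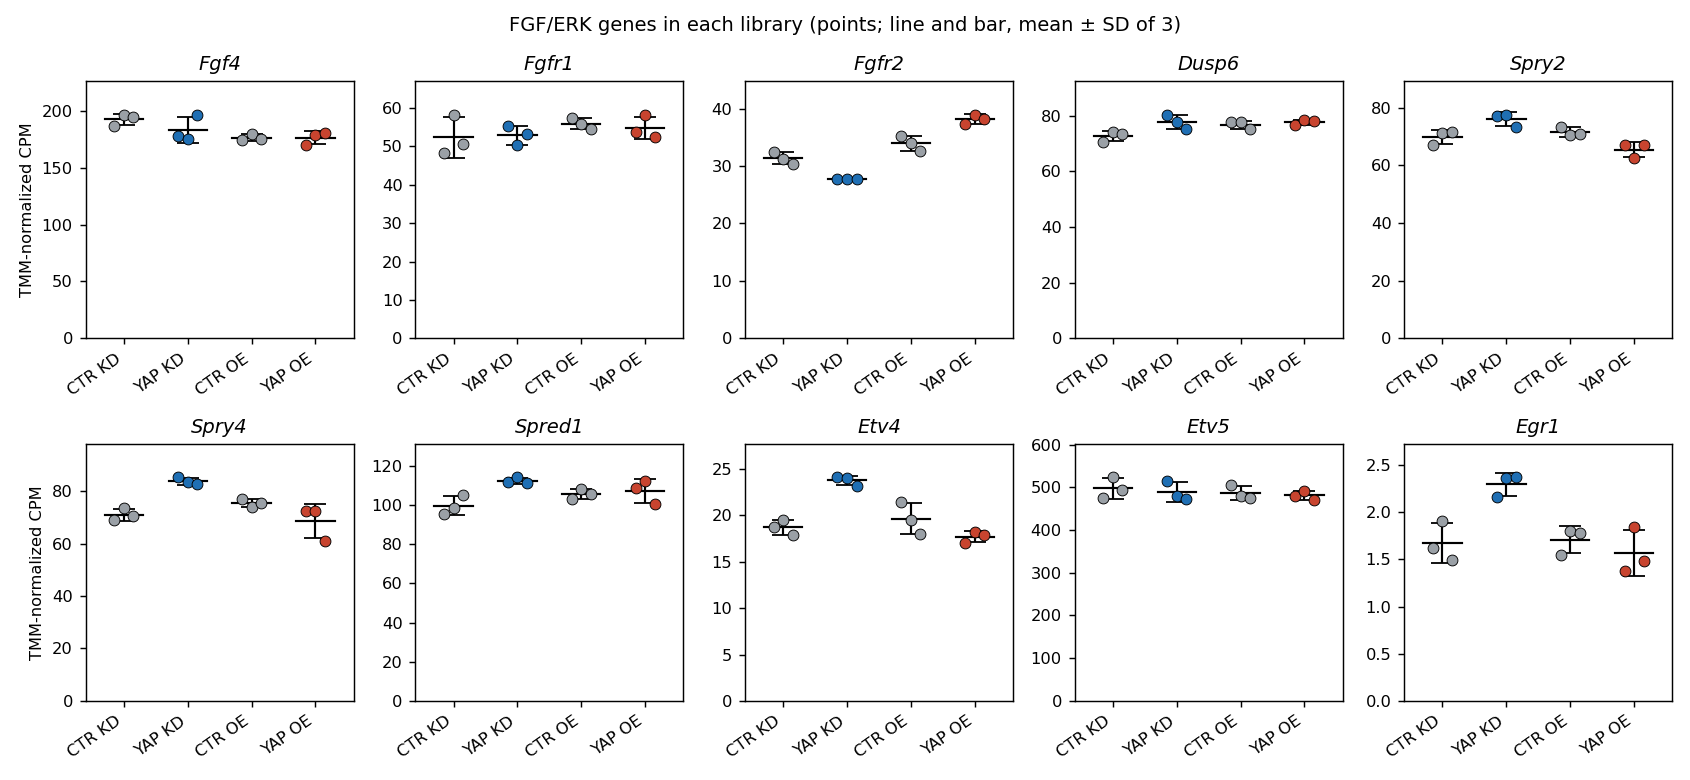
TMM-normalized CPM of each FGF/ERK gene in the 12 libraries (points), with the mean and SD of the 3 libraries of a group (lines and bars), on linear axes from 0. YAP KD lies above CTR KD for Etv4, Spry4 and Spred1 and below it for Fgfr2, whose YAP OE libraries lie above CTR OE.

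The response to knockdown was then compared with the response to overexpression in 1 fit over the 12 libraries, which tests the difference between both log2 fold changes. It passed for 4 of the 10 genes, with Etv4, Spry4 and Spry2 higher on knockdown relative to overexpression and Fgfr2 lower. Of 15049 genes, 8.8% passed this test, 3.56% in the higher and 5.24% in the lower direction. All 4 calls held in each of the 8 other fits and with each of the 12 libraries left out. For these 4 genes the log2 fold changes had opposite signs in both experiments. The perturbations were themselves opposite, and the experiments shared no control library.

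**Figure D3:**
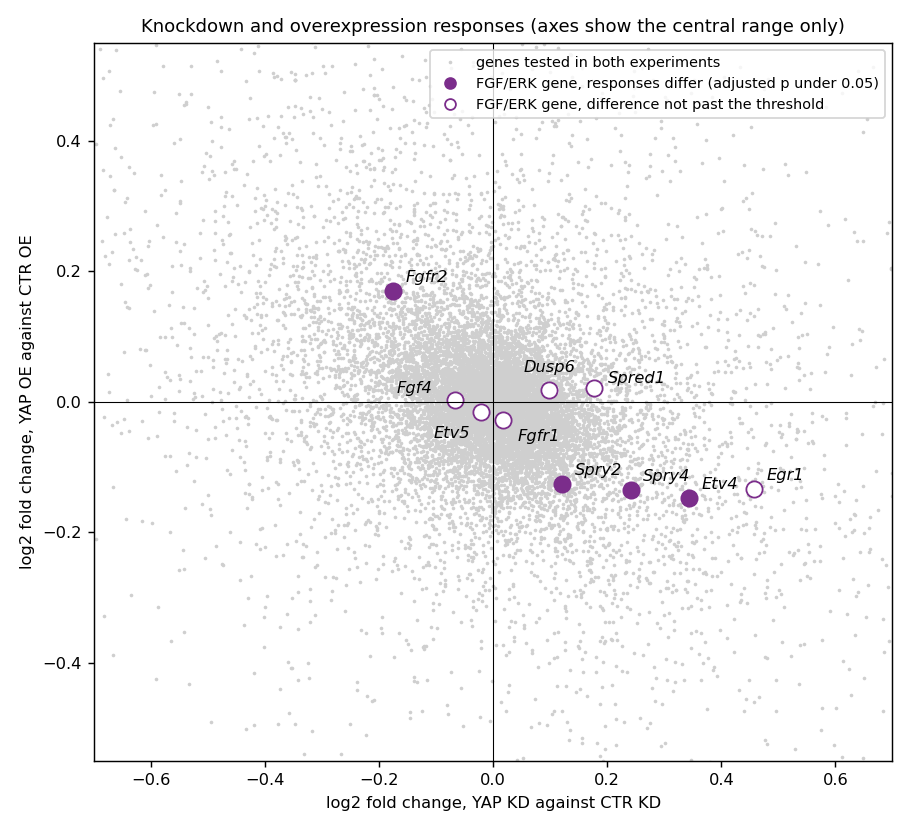
Log2 fold change on knockdown (x axis) against log2 fold change on overexpression (y axis) for the genes tested in both experiments (grey points, central range of the axes) and the 10 FGF/ERK genes (filled where both responses differ at an adjusted p under 0.05). Etv4, Spry4 and Spry2 lie to the lower right and Fgfr2 to the upper left.

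Fgf4, the ligand gene (chr7:144861386-144865245), passed no test. It ranged from 187.3 to 196.9 CPM in CTR KD and from 175.9 to 197 CPM in YAP KD. The log2 fold change was -0.068, with a 95% interval from -0.181 to 0.0456. It ranged from 174.2 to 179.8 CPM in CTR OE and from 170 to 181 CPM in YAP OE (log2 fold change 0.0028, interval from -0.0824 to 0.088). Both pairs of groups overlapped, and the intervals hold changes of at most about 0.181 in either direction on the log2 scale.

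Of the receptors, Fgfr1 (chr8:25518759-25575718), the main FGF receptor of ESCs, also passed no test. It ranged from 48.2 to 58.31 CPM in CTR KD, from 50.36 to 55.24 in YAP KD, from 54.43 to 57.32 in CTR OE and from 52.46 to 58.12 in YAP OE, so that all groups overlapped. The log2 fold changes were 0.018 on knockdown (interval from -0.134 to 0.169) and -0.028 on overexpression (interval from -0.123 to 0.068).

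Fgfr2 (chr7:130162451-130266808), the receptor gene active in primitive endoderm and trophoblast as well, lay on opposite sides of its controls in the knockdown and the overexpression, but neither response alone passed the test. It was at 32.44, 31.18 and 30.41 CPM in the CTR KD libraries and at 27.66, 27.78 and 27.69 CPM in the YAP KD libraries. It was at 35.24, 34.01 and 32.59 CPM in CTR OE and at 37.24, 38.96 and 38.23 CPM in YAP OE. All 3 YAP KD libraries were thus below all controls, and all 3 YAP OE libraries above all others. The log2 fold change was -0.18 on knockdown (SE 0.0448, adjusted p = 0.0526 in edgeR) and 0.17 on overexpression (SE 0.0441, adjusted p = 0.0659). The responses differed by -0.35 (SE 0.0593, adjusted p = 0.00166 in edgeR). With other settings the adjusted p of the single responses fell on either side of the threshold, from 0.0162 to 0.177 on knockdown and from 0.0432 to 0.108 on overexpression. With 1 library left out it ranged from 0.0415 to 0.172 on knockdown. On overexpression it then ranged from 0.072 to 0.374, called in 0 of 6 fits. CTR OE and CTR KD differed in agent and experiment, which cannot be told apart, and Fgfr2 was 0.11 higher in CTR OE on the log2 scale (adjusted p = 0.278).

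Among the targets, Etv4 (chr11:101769747-101785310) had the smallest adjusted p of the 10 genes on knockdown. It was at 18.74, 19.54 and 17.92 CPM in CTR KD and at 24.1, 23.98 and 23.21 CPM in YAP KD, so the lowest knockdown library was above the highest control. It rose by 26.9%, a log2 fold change of 0.34 (SE 0.0503, interval from 0.231 to 0.456, adjusted p = 0.00527 in edgeR). The call held in 9 of 9 other fits and in 6 of 6 fits with 1 library left out, with log2 fold changes from 0.313 to 0.372 over the latter. On overexpression Etv4 was at 21.4, 19.45 and 18.04 CPM in CTR OE and at 17.03, 18.24 and 17.87 CPM in YAP OE. These groups overlapped, the 3 controls were more spread than the 3 YAP OE libraries, and the log2 fold change of -0.15 did not pass (SE 0.0619, adjusted p = 0.302). The difference between both responses was 0.49 (SE 0.0835, adjusted p = 0.00164 in edgeR).

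Etv5 (chr16:22381313-22439570), the close relative of Etv4, passed no test. It was at 497.1 ± 24.5 CPM in CTR KD, 489.1 ± 22.8 in YAP KD, 486.7 ± 17.1 in CTR OE and 480.7 ± 10.8 in YAP OE, and every group overlapped the others. Its log2 fold change was -0.022 on knockdown (interval from -0.131 to 0.0874) and -0.016 on overexpression (interval from -0.109 to 0.0763). The knockdown intervals of Etv4 and Etv5 did not overlap, although the difference between these genes was not tested.

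Egr1, an immediate early gene on chromosome 18, was expressed at a low level. It was at 1.62, 1.911 and 1.492 CPM in CTR KD and at 2.158, 2.366 and 2.37 CPM in YAP KD. In CTR OE it was at 1.545, 1.8 and 1.783 CPM and in YAP OE at 1.377, 1.847 and 1.48 CPM. The knockdown libraries lay above their controls, while those of the overexpression overlapped. The log2 fold change on knockdown, 0.46, was larger than that of Etv4 but so was its SE of 0.13, and it missed the threshold (adjusted p = 0.0787 in edgeR). It was called in the fit over 12 libraries (adjusted p = 0.0478) and without CTR KD replicate 2 (log2 fold change 0.564, adjusted p = 0.0424). The difference between responses was 0.59 (SE 0.193, adjusted p = 0.0748), and it was called without CTR KD replicate 2 (0.698, adjusted p = 0.0418) and without YAP OE replicate 2 (0.715, adjusted p = 0.0341).

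**Figure D4:**
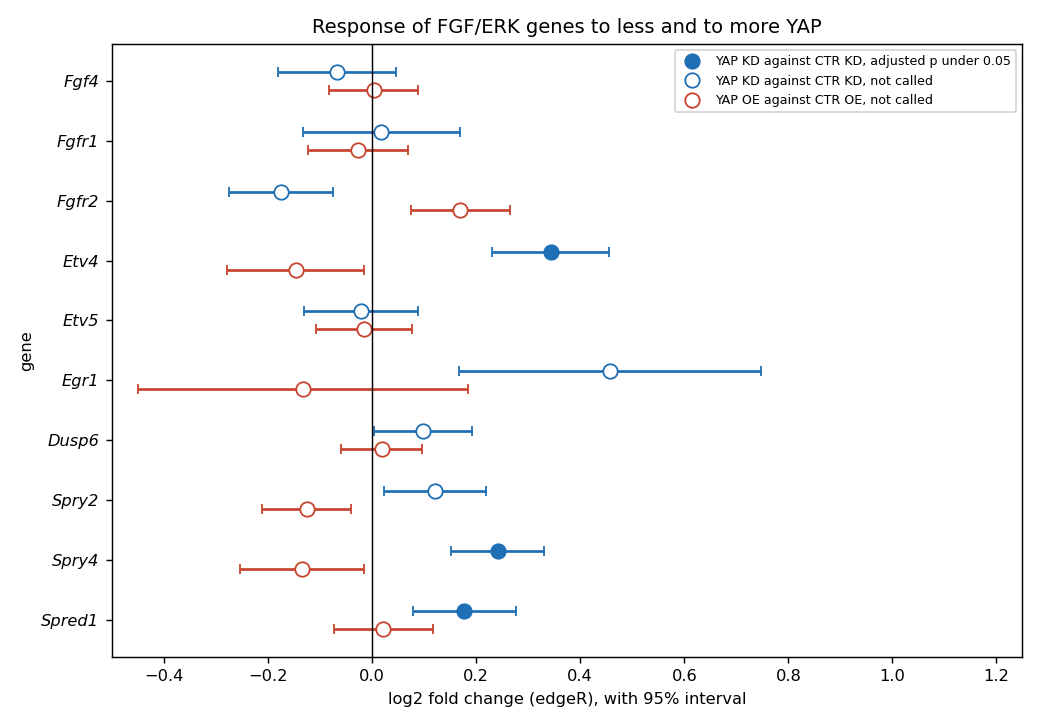
Log2 fold changes of the 10 FGF/ERK genes on knockdown (blue) and on overexpression (red), with 95% intervals from the quasi-likelihood fit and filled points for an adjusted p under 0.05. The 3 filled points are Etv4, Spry4 and Spred1 on knockdown, and the widest intervals are those of Egr1.

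Of the 4 feedback inhibitors, Spry4 and Spred1 passed on knockdown, and Spry2 and Dusp6 did not. Spry4, a Sprouty gene on chromosome 18, was at 68.86, 73.41 and 70.66 CPM in CTR KD and at 85.31, 83.4 and 82.65 CPM in YAP KD. It rose by 18.2%, a log2 fold change of 0.24 (SE 0.0401, adjusted p = 0.00867 in edgeR), with no overlap between groups. The call was lost without CTR KD replicate 3 (0.238, adjusted p = 0.0538) and without YAP KD replicate 1 (0.226, adjusted p = 0.0511). On overexpression Spry4 was at 76.88, 73.83 and 75.67 CPM in CTR OE and at 72.47, 72.55 and 61.08 CPM in YAP OE. Replicate 3 of YAP OE was below the other 2, and the log2 fold change of -0.14 (adjusted p = 0.291) was -0.0598 without it. The responses differed by 0.37 (SE 0.0776, adjusted p = 0.00661 in edgeR), and by between 0.295 and 0.42 with each library left out.

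Spry2 (chr14:105891947-105896819), a second Sprouty gene, passed in neither experiment alone. It was at 67.11, 71.06 and 71.68 CPM in CTR KD, at 77.27, 77.62 and 73.16 CPM in YAP KD, at 73.48, 70.47 and 70.74 CPM in CTR OE and at 66.92, 62.56 and 66.96 CPM in YAP OE. The YAP KD libraries were above and the YAP OE libraries below all their controls. The log2 fold changes were 0.12 (SE 0.0438, adjusted p = 0.156) and -0.13 (SE 0.0399, adjusted p = 0.144), and their difference of 0.25 passed (SE 0.0581, adjusted p = 0.0146 in edgeR).

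Spred1 (chr2:117121071-117182279), which brings the RAS inhibitor neurofibromin to the membrane, was at 95.66, 98.44 and 104.9 CPM in CTR KD and at 111.8, 114.2 and 111.5 CPM in YAP KD. It rose by 13% with no overlap (log2 fold change 0.18, SE 0.0442), at the edge of the threshold (adjusted p = 0.0495 in edgeR). The call was kept in 4 of 9 other fits and in 0 of 6 with 1 library left out, where the adjusted p ranged from 0.0524 to 0.19 and the log2 fold change from 0.144 to 0.215. On overexpression Spred1 was at 105.6 ± 2.4 CPM in CTR OE and 107.1 ± 6.06 CPM in YAP OE (log2 fold change 0.021, interval from -0.0744 to 0.116). The difference between responses did not pass (0.15, SE 0.0647, adjusted p = 0.167).

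Dusp6 (chr10:99263231-99267489), the ERK phosphatase gene, passed no test. It was at 70.61, 74.24 and 73.36 CPM in CTR KD and at 80.4, 77.62 and 75.23 CPM in YAP KD, without overlap. The log2 fold change was 0.097 (interval from 0.00389 to 0.191, adjusted p = 0.232 in edgeR). On overexpression it was at 76.78 ± 1.48 CPM in CTR OE and 77.67 ± 0.885 CPM in YAP OE (log2 fold change 0.018, interval from -0.0598 to 0.096). Dusp6, Spry2, Spry4 and Spred1 thus ran from 0.097 to 0.24 on knockdown and from -0.14 to 0.021 on overexpression on the log2 scale. Other feedback inhibitors, among them Spry1, which fell on knockdown, are given below.

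For the 2 genes whose responses differed in opposite directions and for which a RefSeq start site was given, Fgfr2 and Spry2, the 250 bases before the start site on the minus strand of GRCm38.p6 are shown 5′ to 3′. Capitals mark the ETS core GGAA on either strand, a motif and a choice of genes made after the values were known. The first region is chr7:130266809-130267058 and the second chr14:105896820-105897069.
Fgfr2: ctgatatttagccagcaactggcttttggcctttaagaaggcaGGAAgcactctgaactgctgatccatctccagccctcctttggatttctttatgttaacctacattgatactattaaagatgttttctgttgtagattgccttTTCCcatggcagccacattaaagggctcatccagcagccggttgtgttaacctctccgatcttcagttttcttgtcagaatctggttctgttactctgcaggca
Spry2: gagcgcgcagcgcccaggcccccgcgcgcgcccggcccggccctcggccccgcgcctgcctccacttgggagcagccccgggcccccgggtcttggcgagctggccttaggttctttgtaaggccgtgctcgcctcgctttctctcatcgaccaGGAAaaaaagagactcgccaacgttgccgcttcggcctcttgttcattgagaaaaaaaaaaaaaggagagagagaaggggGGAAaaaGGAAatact
The Fgfr2 region held 2 ETS cores, 44.0% G or C and 2 CG dinucleotides. The Spry2 region held 3 ETS cores, 62.4% G or C and 23 CG dinucleotides. The median over 32851 listed promoters was 3 ETS cores per 250 bases, so neither region was rich in them.

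Longer motifs were searched on both strands from 250 bases before to 50 after each start site. RefSeq gave 7 such windows for 6 of the 10 genes, namely Fgf4, Fgfr2, Dusp6, Spry2, Spred1 and Etv5, and none was read for Fgfr1, Etv4, Spry4 and Egr1. The TEAD site GGAATG, which also contains the ETS core, was in 0 of the 7 windows and in 14.7% of all promoters. The ETS site CCGGAA, which contains the ETS core, was in 1 of the 7 and in 14.9% of all. The one match lay in Spry2, with its first base at position 34 from the start site, and is shown with its flanks from chr14:105896773-105896794 on the minus strand.
Spry2 ETS site: catctatcCCGGAAtccgggag
Capitals mark the motif. The EGR motif GCGGGGGCG, the AP-1 motif TGANTCA and the CArG box bound by serum response factor were in 0 of the 7 windows and in 2.91%, 7.81% and 1.63% of all promoters. Such matches describe the letters of these windows alone.

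Beyond the 10 genes, 110 further genes of the pathway were read in 6 lists, and 109 of them were in the tables. On knockdown 4 rose and 4 fell of 94 tested, or 8.51%, and on overexpression 5 rose and 0 fell of 95 tested, or 5.26%. Over all genes tested 5.49% and 2.13% were called, with 2.71% higher and 2.78% lower on knockdown and 1.66% higher and 0.473% lower on overexpression, and the counts of each list below are to be read beside these shares. For abundant genes of the cascade the log2 fold changes on knockdown and on overexpression were -0.12 and 0.044 for the adaptor gene Gab1, and 0.0013 and -0.014 for Nras. None of these passed the test.

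Of the other 21 ligand genes, 10 were tested on knockdown and 11 on overexpression, with 0 called in either. Their median log2 fold changes were 0.112 and -0.0724. Fgf17, the most abundant of them, was at 17.33 CPM in CTR KD and at 18.22 CPM in YAP KD (log2 fold change 0.072, adjusted p = 0.598). The ligand made in quantity by these cells, Fgf4, was thus 1 of the genes that did not pass.

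Of the other receptors and binding proteins, 9 were tested and 1 was called in each experiment. This was Fgfbp1, a secreted protein that releases FGF from the matrix, with the largest change of all lists on knockdown. On knockdown it fell from 10.61 ± 0.188 to 5.317 ± 0.0837 CPM (log2 fold change -0.995 with an SE of 0.0638, adjusted p = 0.00011 in edgeR). In the overexpression experiment it rose from 11.26 ± 0.668 to 16.2 ± 0.531 CPM (log2 fold change 0.53, SE 0.0596, adjusted p = 0.000209). Both calls held with each library left out. Among the heparan sulfate genes, 2 of 21 fell on knockdown and 1 of 21 rose on overexpression. The cell surface proteoglycan gene Sdc4 fell from 62.85 to 52.57 CPM (log2 fold change -0.26, adjusted p = 0.0109) and rose from 57.33 to 67.76 CPM (0.24, adjusted p = 0.00764). The glypican gene Gpc3 fell from 59.47 to 48.02 CPM (-0.31, adjusted p = 0.00867) and was at 51.5 CPM in CTR OE and 55.45 CPM in YAP OE (0.11, adjusted p = 0.312). Sdc4 lost its call without YAP KD replicate 2 (-0.236) and without CTR OE replicate 2 (0.224) or 3 (0.236), and Gpc3 without CTR KD replicate 3 (-0.284) or YAP KD replicate 2 (-0.283).

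Of the adaptors and the kinase cascade, 2 of 24 genes rose on knockdown and 0 passed on overexpression. The scaffold gene Ksr1, whose protein holds RAF, MEK and ERK together, rose from 6.042 to 8.169 CPM (log2 fold change 0.43, adjusted p = 0.0138 in edgeR). The adaptor gene Shc1 rose from 86.97 to 97.72 CPM (0.17, adjusted p = 0.0375). Ksr1 lost its call without YAP KD replicate 1 (0.419) or 2 (0.428), and Shc1 with 5 of 6 libraries left out in turn (0.144 to 0.183).

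The other feedback inhibitors were tested for 14 genes, of which Spry1 fell on knockdown and Dusp9 and Errfi1 rose on overexpression. Spry1, the third Sprouty gene tested, fell from 22.27 ± 0.623 CPM in CTR KD to 18.62 ± 0.497 CPM in YAP KD (log2 fold change -0.26 with an SE of 0.0492, adjusted p = 0.0171 in edgeR). Its direction was opposite to that of Spry4, and the call was lost with 4 of 6 libraries left out in turn. Dusp9, an ERK phosphatase abundant in ESCs, rose from 79.75 to 90.89 CPM (0.19, adjusted p = 0.0377), and Errfi1, an inhibitor of the EGF receptor, from 21.03 to 24.79 CPM (0.24, adjusted p = 0.0205). Dusp9 lost its call with 5 and Errfi1 with 3 of 6 libraries left out in turn. The list's median was 0.14 on knockdown and -0.0483 on overexpression.

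Of the other ETS and immediate early genes, 2 of 16 rose on knockdown and 1 of 16 on overexpression. Etv1, the third PEA3 gene, rose from 11.83 ± 0.619 to 15.2 ± 0.562 CPM (log2 fold change 0.36 with an SE of 0.0619, adjusted p = 0.00941 in edgeR) and lost its call without YAP KD replicate 1 (0.334). Fosl2, an AP-1 subunit, rose from 1.751 to 3.011 CPM (0.78, adjusted p = 0.00918), but it was also 0.83 higher in CTR OE than in CTR KD (adjusted p = 0.00515). Its CTR OE level of 3.119 CPM was thus near that of YAP KD. On overexpression Ier3, an early response gene, rose from 2.875 to 4.126 CPM (0.52, adjusted p = 0.0273), and its call was lost with 5 of 6 libraries left out in turn. The list's median was 0.0944 on knockdown and -0.116 on overexpression, beside 0.0058 and -0.00249 over all genes tested. On overexpression 2 of the 16 log2 fold changes were positive and 14 negative. An unadjusted p under 0.05 in edgeR was found for 7 of them, against 13.1% of all genes. On knockdown 12 were positive and 4 negative, and 3 had such a p, against 19.6% of all genes.

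**Figure D5:**
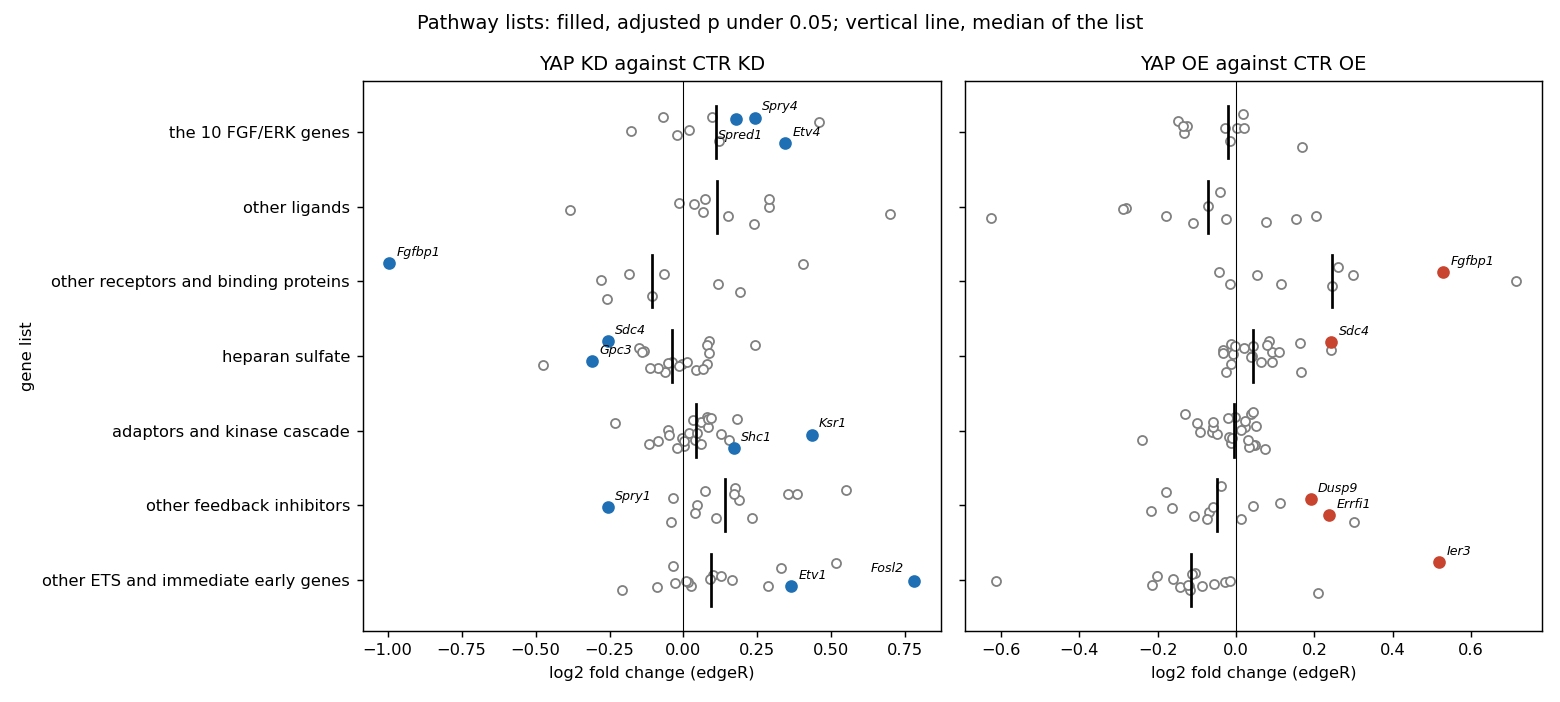
Log2 fold changes of the tested genes of the 10 FGF/ERK genes and 6 further pathway lists on knockdown (left) and on overexpression (right), with filled and named points for an adjusted p under 0.05 and a vertical line at each list's median. Fgfbp1 lies farthest to the left on knockdown, at -0.995, and farthest to the right among the called genes on overexpression, at 0.53.

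The control groups, which differed in agent and experiment, were compared with each other. Of the 10 genes, 0 passed between CTR OE and CTR KD, where 1.33% of 15049 genes were called in edgeR, and 2 of the 10 had an unadjusted p under 0.05. Libraries of both control groups did not overlap for Fgf4, lower in CTR OE, and for Fgfr2, Dusp6 and Spry4, higher in CTR OE. For the unadjusted p and for the overlap, no share over all genes was computed between the controls. Their log2 fold changes lay between -0.129 for Fgf4 and 0.114 for Fgfr2. The difference between controls was larger in size than the change on knockdown for Fgf4 (-0.129 against -0.068), Fgfr1 (0.091 against 0.018) and Etv5 (-0.032 against -0.022). It was smaller for the other genes, among them Etv4 (0.065) and Spry4 (0.087). YAP KD and CTR KD both received siRNAs in the same experiment, so this difference sets no bound on a change on knockdown.

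Markers of other cell types were read beside these results. On overexpression the 7 trophoblast markers summed to between 22.1 and 22.7 CPM in CTR OE and between 25.3 and 31 CPM in YAP OE, 2 of 6 tested rose, and no marker of the list was at 0 in a group. Cdx2 rose from 0.1486 to 0.6283 CPM and Gata3 from 0.285 to 1.039 CPM. Most of the trophoblast sum came from Tead4, a TEAD factor gene, at 15.05 CPM in CTR OE and 16.66 CPM in YAP OE. Krt7 came next, at 5.372 CPM in CTR OE and 7.183 CPM in YAP OE. The 7 primitive endoderm markers summed to between 6.22 and 7.71 CPM in CTR OE and between 7.95 and 8.73 CPM in YAP OE. Of these markers, 4 had a positive and 3 a negative log2 fold change. Dab2 rose from 2.658 to 4.109 CPM, while Gata4 went from 1.803 to 1.494 CPM without overlap and without a call. Fgfr2 was at 33.95 CPM in CTR OE and at 38.15 CPM in YAP OE, without a call, and its relation to these markers was not tested. On knockdown 0 markers of these lists were called. The trophoblast sum was between 22.8 and 26 CPM in CTR KD and between 22.3 and 23.5 CPM in YAP KD, and that of primitive endoderm between 6.5 and 7.48 and between 7.01 and 8.63 CPM. Within the trophoblast sum Tead4 went from 19.62 to 17.33 CPM on knockdown and Krt7 from 3.143 to 4.024 CPM. The 6 fibroblast markers summed to at most 2.13 CPM in CTR KD and at least 2.39 CPM in YAP KD. They summed to between 2.45 and 3.02 CPM in CTR OE and between 2.64 and 2.78 CPM in YAP OE. Lum was at 0 in all CTR KD and CTR OE libraries and at most at 0.01866 CPM in YAP KD. The 4 mesendoderm markers did not exceed 1.48 CPM in any library. The part of these cells in the values of the 10 genes was not tested.

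The genes most like each called FGF/ERK gene over the 12 libraries were listed by Pearson's r on log2(CPM + 1). For Etv4 they were Trmt112 (0.946), Crabp2 (0.946) and Ngfr (0.945). For Spry4 they were Mrc2 (0.945), Setd1b (0.943) and Myrf (0.939), and for Spred1 they included Wdr26 (0.951) and Cr1l (0.939). These values are the highest among all genes tested in both experiments, and the libraries fall into 4 groups and share their scaling, so they describe likeness alone.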

How the data were processed

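Expression was measured by RNA-seq in 12 libraries of mouse ESCs, grouped by the treatment and replicate number in the labels. The authors aligned reads with STAR to mm10 and quantified curated RefSeq genes with RSEM; versions and strand setting are not given in the sources used here, so reads of a gene and of an antisense neighbour cannot be told apart. The authors deposited expected counts (not normalized; RSEM divides shared reads between genes), TPM and FPKM, with effective lengths. The authors' deposited TPM values were scaled by RSEM to one sum per library, and their deposited FPKM values per kilobase and by the fragments counted. Neither entered a test.

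After rounding of the expected counts, each experiment's 6 libraries were fitted with edgeR 4.0.16 in R 4.3.3 (filterByExpr, TMM, quasi-likelihood F test, two-sided, Benjamini-Hochberg over all genes kept, called at adjusted p under 0.05). The difference between responses and CTR OE against CTR KD came from 1 fit of all 12. The SE is the log2 fold change over the square root of F. CPM values are TMM-normalized over the 12 libraries. The chi-square of replicate counts over its degrees of freedom lay between 3.54 and 25.7, above sampling noise, so each library counted as 1 sample. Libraries held 42926256 to 57240703 expected counts.

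The 10 genes, the gene lists and the tests were chosen with earlier results of these data known. All 10 genes are named. Of the pathway lists, genes called in either experiment are named, and uncalled ones by highest mean CPM. For each called gene, the 3 genes of highest r were taken. Some genes that these rules select are not reported here. Fgf5, Mapk3, Spred3, Cdx2, Gata3, Gata4, Dab2, Lum, Nanog, Zfp42, Tfcp2l1 and Dppa3 were named after their values were seen. Alternatives were other scaling factors, filters, DESeq2 1.42.0, limma-voom (limma 3.58.1), 1 fit of 12 libraries, effective length as an offset, a replicate block and leaving out each library. Scripts were tested on simulated data. Promoter sequences and gene positions were taken from RefSeq tables for GRCm38.p6, the assembly named mm10.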

Additional observations from a re-analysis of the deposited data

Results flagged for a closer look

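The response to knockdown differed from the response to overexpression in the fit over 12 libraries (edgeR, adjusted p under 0.05) for 4 of the 10 FGF/ERK genes, and for 8 genes in the higher and 3 in the lower direction of the 96 further pathway genes tested. The perturbations were themselves opposite. The difference was -2.11 on the log2 scale for the targeted gene Yap1 itself. Among the 10 genes it was 0.489 for Etv4, -0.347 for Fgfr2, 0.374 for Spry4 and 0.246 for Spry2, with the values given above.

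On the ligand and matrix side of the pathway, the difference was -1.52 for Fgfbp1, -0.501 for Sdc4 and -0.418 for Gpc3, each lower on knockdown relative to overexpression. The ligand genes Fgf5 (0.913) and Fgf15 (0.416) had the other direction, although neither passed in a single experiment. The call of Fgf15 was lost with 6 of 12 libraries left out in turn and in 2 of 8 other fits (adjusted p up to 0.0912), and that of Fgf5 with 3 of 12 (up to 0.0545). Fgf5, a gene of the primed epiblast, was at 1.224 CPM in CTR KD, 1.494 in YAP KD, 1.241 in CTR OE and 0.8102 in YAP OE. Inside the cell, the difference was 0.672 for Ksr1 and 0.282 for Mapk3, which encodes ERK1. Among targets it was 0.451 for Etv1 and 0.897 for Fosl2, and among feedback inhibitors 0.395 for Dusp4 and 0.567 for Spred3. Dusp4 lost this call with 9 of 12 libraries left out in turn and in 1 of 8 other fits (adjusted p up to 0.107), and Spred3 with 10 of 12 and in 2 of 8 (up to 0.115). Of these genes, Fgfbp1, Sdc4 and Yap1 passed the test in each experiment on its own, in opposite directions.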

How the results depend on the processing

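The calls of Etv4 on knockdown and the 4 differences between responses (Etv4, Fgfr2, Spry4, Spry2) kept direction and side of the threshold in every alternative and with every library left out. On knockdown 802 genes and 3 FGF/ERK genes were called; these counts were 1261 and 5 in 1 fit over 12 libraries (with Fgfr2 and Egr1), and 298 to 1019 genes and 1 to 4 FGF/ERK genes with 1 library left out. The lower counts were 298 without CTR KD replicate 3, 360, 306 and 369 without YAP KD replicate 1, 2 and 3, and 1 FGF/ERK gene without CTR KD replicate 3 or YAP KD replicate 1. On overexpression 316 genes and 0 FGF/ERK genes were called; without a filter these were 556 and 1 (Fgfr2), the share of higher calls went from 77.8% to 68.2%, and with 1 library left out 154 to 327 genes were called (168, 181 and 154 without CTR OE replicate 1, 2 and 3, with 89% higher in the last). Between the control groups 200 genes were called, and 85 to 217 with 1 library left out (91 without CTR KD replicate 3 and 85, 96 and 108 without CTR OE replicate 1, 2 and 3). With the replicate number as a block, 193 genes and 1 FGF/ERK gene (Etv4) were called on knockdown. Of the further pathway genes called on knockdown, Etv1, Fosl2, Ksr1, Gpc3, Sdc4, Spry1 and Shc1 lost their calls with this block. Their adjusted p in edgeR then ranged from 0.0535 to 0.161, and Fgfbp1 alone kept its call. The cause was not tested. Deviations of same-numbered knockdown libraries correlated at -0.401, -0.286 and 0.035 and of overexpression libraries at 0.043, 0.076 and -0.028. Those of YAP KD replicate 1 and CTR KD replicate 2 correlated at 0.422. With 3 libraries a group, these values cannot show whether same-numbered samples were made together.

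Values near 0 changed sign and none of them was called. Fgf4 on overexpression was -0.000299 with relative log expression factors, -0.000294 in DESeq2 and -4.19e-05 with the length offset. With 1 library left out, log2 fold changes on knockdown ranged from -0.042 to 0.099 for Fgfr1 and from -0.0623 to 0.0134 for Etv5. On overexpression they ranged from -0.0183 to 0.0311 for Fgf4, from -4.61e-05 to 0.0286 for Dusp6, from -0.0169 to 0.062 for Spred1, from -0.0369 to 0.0117 for Etv5, from -0.19 to 0.00991 for Fosl2 and from -0.00219 to 0.0763 for Shc1. The difference between responses ranged from -0.0118 to 0.128 for Fgfr1 and from -0.0462 to 0.0308 for Etv5. Between the control groups the ranges were -0.0632 to 0.00733 for Etv5, -0.0529 to 0.135 for Egr1, -0.0291 to 0.0821 for Ksr1, -0.012 to 0.0825 for Fgf15 and -0.0559 to 0.141 for Fgf5. Of all values of the 10 genes under the alternatives, 592 kept direction and side, 14 lost a call, 9 gained one and 25 changed sign. With 3 libraries a group the SE on knockdown was 0.0401 to 0.0676 for 9 of the 10 genes and 0.13 for Egr1, the gene of lowest counts.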
